A study of Mus musculus with 12 samples.

Results

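Ionotropic and metabotropic glutamate receptor subunits, together with the auxiliary proteins that assemble with them, were examined in the hippocampus of APP/PS1 and WT mice. Members were taken by mouse symbol from the count table: names beginning with Gria, Grik, Grid or Grm followed by a number, the subunits Grin1, Grin2a to Grin2d, Grin3a and Grin3b, the transmembrane AMPA receptor regulatory proteins Cacng2, Cacng3, Cacng4, Cacng5, Cacng7 and Cacng8, and Cnih2, Cnih3, Shisa6, Shisa7, Shisa9, Neto1 and Neto2. The rule took 40 of the 55573 genes in the table. Of these, 37 were among the 14008 genes whose depth-scaled count (CPM) reached a log2 value of at least 1 in at least 3 libraries, and only those entered the tests. The other 3 were Grin3b, with 17 to 30 counts per library, Grid2ip, an intracellular scaffold protein that the name rule also takes, with 17 to 59 counts, and Grm6, with 0 counts in all 12 libraries.

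Glutamate is the main excitatory transmitter of the hippocampus. AMPA receptors carry most of the fast synaptic current, NMDA receptors admit calcium when glutamate release coincides with depolarization, and kainate receptors act on both sides of the synapse; delta receptors bind the cerebellin family of synaptic organizers, and metabotropic receptors signal through G proteins. Auxiliary subunits set where these channels sit and how they open and close, with the Cacng, cornichon and Shisa families bound to AMPA receptors and the Neto proteins bound to kainate receptors.

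The study looked for differences between the sexes in the hippocampal transcripts of a mouse model of Alzheimer's disease. Poly-A directional libraries were made from the whole right hippocampus of C57BL/6J mice aged 4.5 months, with 4 APP/PS1 and 2 WT animals of each sex. WT animals lack the APPSwe/PS1dE9 transgenes that APP/PS1 animals carry. By the paper's account, both transgenes use a prion promoter element. They express APP that is part mouse and part human with the Swedish mutation, and human PS1 without exon 9. The values are counts of reads per gene, and the 12 libraries held between 36714316 and 50643565 counts.

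Labels were checked against the data before the comparisons. Xist, expressed from the inactive X chromosome, ranged from 619 to 805 CPM in the 6 female libraries and was at most 0.215 CPM in the 6 male libraries, and Ddx3y separated the sexes the other way, so every library matched its labelled sex. Counts of App did not separate the genotypes, with 1539.7 to 1659 CPM in the 8 APP/PS1 libraries and 1549.8 to 1716 CPM in the 4 WT libraries. Gfap, the intermediate filament of reactive astrocytes, did separate them, with 529.6 to 1124 CPM in APP/PS1 and 393 to 425 CPM in WT. Prnp, the prion protein gene, did not, with 720 to 822 CPM in APP/PS1 and 741 to 815 CPM in WT. Thy1 separated them most widely of these 4 genes, with 2173 to 3311 CPM in APP/PS1 and 726 to 747 CPM in WT. The source of the Thy1 difference was not tested. All 13 marker genes of dentate granule, CA1 and CA3 pyramidal cells were above the expression filter. So were the 4 thalamic and 4 of 5 striatal markers, so passing the filter does not tell these tissues apart. Summed levels per library were 259 to 342 TPM for dentate, 429 to 567 for CA1 and 677 to 794 for CA3 markers. The thalamic markers summed to 33.6 to 43.3 TPM and the striatal markers to 19.6 to 34.6 TPM. There were 3 libraries apart from the rest, APP/PS1 female 1, WT female 2 and APP/PS1 male 2, in which the choroid plexus transcript Ttr reached 3530.0, 3647 and 6362 CPM against 2.69 to 18.3 CPM in the other 9. Counts of members are therefore also given without these 3 libraries for the genotypes with sexes averaged, for the genotypes in females and for the difference between the sexes. Those fits also held none of the factors for unwanted variation (RUV) of the main fit, and they left a lone WT female. The 2 changes were not separated.

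Levels were compared between members in TPM, which scales counts by the exonic length of each gene as well as by depth. Cnih2, a cornichon that slows the closing of AMPA receptors, was the most abundant member, with a median of 909 TPM and a range of 769 to 1069.8 TPM over 12 libraries. The AMPA receptor subunits followed the order Gria1, Gria2, Gria3 and Gria4 in all 12 libraries, with medians of 609.9, 221, 83.7 and 48.8 TPM. Gria1 thus made up 60.6 to 66.7% of the AMPA receptor subunit TPM of a library. Among NMDA receptor subunits, the obligatory Grin1 led with 167 TPM, ahead of Grin2b at 81.1, Grin2a at 55.2, Grin2c at 28.2, Grin3a at 16.3 and Grin2d at 7.70 TPM, again in that order in 12 of 12 libraries. The coefficient of variation of CPM over 12 libraries had a median of 8.19% across the 37 members and of 9.35% across all genes tested, and ran from 4.95% to 17.5% (Grm4).

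Kainate receptors were led by Grik5, a subunit that needs a partner to form a channel, at 108 TPM. Grik4, Grik3 and Grik2 lay close together at 27.2, 26.5 and 21.9 TPM. Grik4 exceeded Grik3 in only 6 of 12 libraries, so Grik4 and Grik3 were not separated, whereas Grik3 exceeded Grik2 in 12 of 12. With the longest transcript taken as the gene length, a choice made after seeing the data, Grik2 moved from the fourth to the second place, ahead of Grik4 and Grik3, and the order within the other roles did not change. Medians did move, with Grin1 at 300 TPM in place of 167 and Grm8 at 6.14 in place of 3.77, while that of Cnih2 fell to 733 TPM. Grid1 reached 41.6 TPM. In the metabotropic groups, Grm5 had 119 TPM, Grm3 at 56.5 exceeded Grm2 at 44.0 in 11 of 12 libraries, and Grm7 at 37.4 exceeded Grm4 at 8.79 and Grm8 at 3.77 TPM. Grm6, the receptor of retinal bipolar cells, had no counts. The AMPA receptor regulatory proteins ran from Cacng8 at 94.6 TPM through Cacng7 at 66.6, Cacng3 at 58.5, Cacng2 at 51.2 and Cacng4 at 18.6 to Cacng5 at 8.31 TPM, and Cacng3 exceeded Cacng2 in 11 of 12 libraries. Cnih2 held 89.2 to 92.5% of the TPM of the cornichon pair, the remainder being Cnih3. Shisa7, Shisa6 and Shisa9 had 85.5, 68.0 and 40.4 TPM, and Neto1 and Neto2 had 74.4 and 40.1 TPM, each order holding in 12 of 12 libraries.

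**Figure D1:**
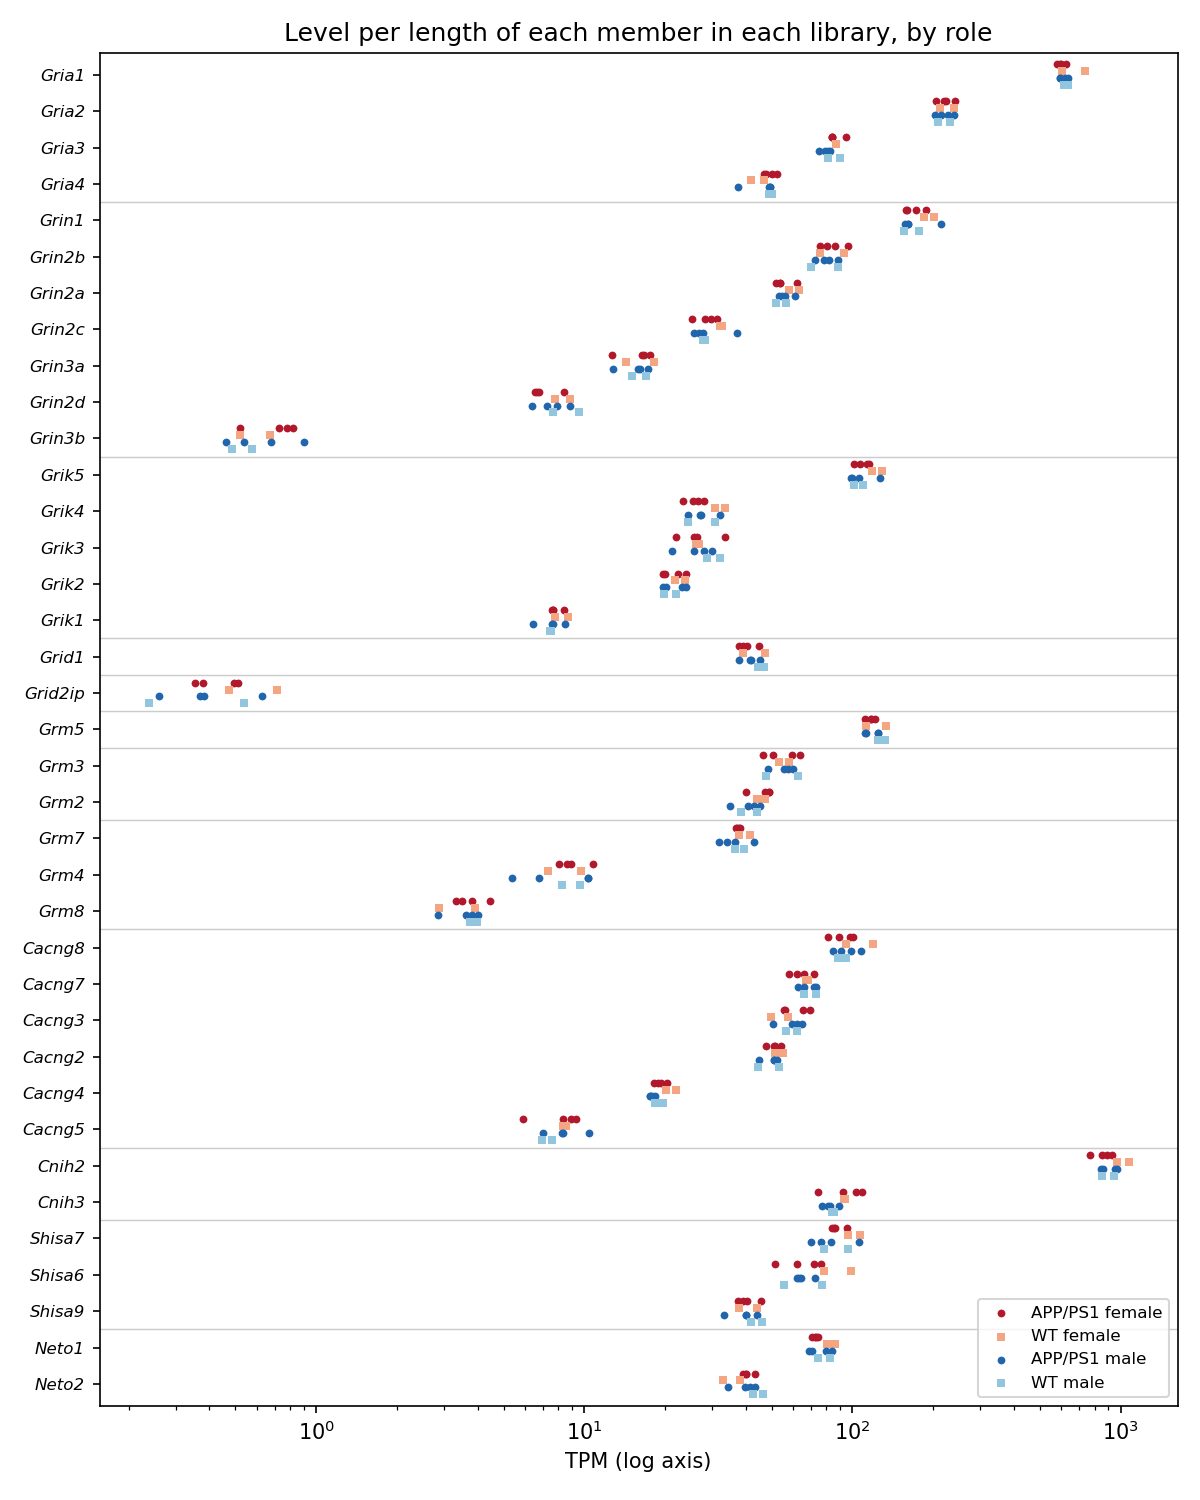
Level of members in each library in TPM on a log axis, by role, with 1 point per library coloured by group and grey lines between roles; Grm6 is not drawn because it had 0 counts. The spread between animals is small against the distance between the most and the least abundant members.

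The 40 members lie on 18 chromosomes, with Cacng7 beside Cacng8 on chromosome 7, Cacng4 beside Cacng5 on chromosome 11 and Gria3 on chromosome X. RefSeq promoter windows of 300 bases on GRCm38.p6 were found for 25 of the 40 members, 31 windows in all since 5 members have more than 1. The letters GGGCGG, known as a GC box, searched on both strands, were present in 18 of the 31 windows (58.1%) and in 35.7% of all 32851 windows of that length. The letters TATAAA, also searched on both strands, were in 1 of the 31, that of Grin3b, and in 13.6% of all windows. CG dinucleotides numbered 0 to 50 with a median of 17 per window, against a median of 7 over all windows. The windows of Cnih2, the most abundant member, and of Grm6, the member without counts, are shown as the ends of the range of levels and have 25 and 4 CG dinucleotides. They are printed 5′ to 3′ on the strand of the gene, with GGGCGG or its complement CCGCCC in capitals; the first lies at chr19:5098472-5098771 on the minus strand and has 3 such matches, and the second lies at chr11:50850435-50850734 on the plus strand and has 0. A match describes letters in the window and not a bound site.
Cnih2: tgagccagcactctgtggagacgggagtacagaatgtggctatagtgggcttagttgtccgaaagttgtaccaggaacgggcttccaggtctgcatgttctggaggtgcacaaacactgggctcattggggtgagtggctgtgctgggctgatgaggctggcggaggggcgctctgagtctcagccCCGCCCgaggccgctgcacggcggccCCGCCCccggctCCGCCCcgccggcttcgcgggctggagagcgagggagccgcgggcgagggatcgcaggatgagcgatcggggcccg
Grm6: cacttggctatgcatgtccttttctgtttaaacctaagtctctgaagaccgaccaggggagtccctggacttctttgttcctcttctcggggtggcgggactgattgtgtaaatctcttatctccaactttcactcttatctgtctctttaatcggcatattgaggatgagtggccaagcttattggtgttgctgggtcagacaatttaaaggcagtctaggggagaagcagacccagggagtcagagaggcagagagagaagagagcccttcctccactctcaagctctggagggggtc

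The first comparison asked which members differed between APP/PS1 and WT when both sexes were averaged. With edgeR's quasi-likelihood test, both sexes averaged and a false discovery rate (FDR) under 0.1 after Benjamini-Hochberg adjustment across the 14008 genes tested, 0 of 37 members were called, while 266 genes (1.9%) were called in the whole table. Leaving out 1 APP/PS1 animal called 178 to 359 genes and 0 members. Fits without WT female 1 or WT female 2, with a lone WT female left, called fewer genes. The likelihood ratio test of edgeR and DESeq2 also called 0 members. At an unadjusted p under 0.05, 1 member was higher and 0 were lower, where 6.26% of all genes were higher and 3.33% lower; DESeq2 had 1 member in each direction and the likelihood ratio test 1 higher. Leaving out WT female 2 raised the counts to 2 higher and 3 lower, and leaving out WT male 1 to 1 higher and 3 lower; there was 1 of each without WT female 1, without female 2 or 3 of APP/PS1 or without male 2 or 3 of APP/PS1. Without the 3 choroid-rich libraries they were 1 and 2. In no member did the 8 APP/PS1 libraries lie wholly above or wholly below the 4 WT libraries, as 1.31% and 0.136% of all genes did. The median log2 fold change was -0.024 over the members and 0.0095 over all genes, and 22 of 37 members were below 0 (59.5%) against 45.3% of all genes. Intervals were narrow enough to bound these differences: the 95% confidence interval lay within 0.5 of 0 on the log2 scale for 36 of 37 members, the exception being Shisa6.

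Split by sex, edgeR's quasi-likelihood test called 0 of 37 members in females, with 108 genes (0.771%) called in the table, and 0 of 37 in males, with 24 genes (0.171%) called. Leaving out 1 APP/PS1 animal gave 64 to 156 genes in females and 9 to 44 in males. Without WT female 1 the female count was lower still. The male count rose without WT male 1 and fell without WT male 2, and each of these fits leaves a lone WT library in that sex. The likelihood ratio test also called 0 members in each sex, with 288 genes in females and 142 in males, and DESeq2 called 0 members, with 297 and 146 genes. In females, 6 members were lower and 2 were higher at an unadjusted p under 0.05 (16.2% and 5.41% of 37), where 3.64% of all genes were lower and 6.15% higher. The likelihood ratio test had 6 lower and 1 higher, DESeq2 had 7 and 1, and a fit of each sex alone without RUV factors had 3 and 2. Females had 25 of 37 members below 0 (67.6%, all genes 45.9%) and a median of -0.049. In males, 0 members were lower and 0 higher at that p with each of these tools, where 1.93% and 3.78% of all genes were (1 lower and 1 higher without WT male 2, 2 higher without WT male 1, and 1 lower without male 1 or 3 or female 2 of APP/PS1), and 17 of 37 members were below 0 with a median of 0.0089. Both female counts rest on 2 WT animals.

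The count of lower members in females depended on which animals were in the fit. WT female 1 held the highest CPM of 11 of the 37 members (29.7%) among the 12 libraries, and of 7.77% of all genes tested. Without WT female 1, only 1 member, Grin2d, was lower in females at an unadjusted p under 0.05 and 2 were higher. Without APP/PS1 female 2, 3 were lower and 2 higher, and 1 was higher when APP/PS1 female 1, 3 or 4 was left out. Without WT female 2, a library rich in choroid plexus transcripts, 8 were lower and 3 higher, with the remaining WT female assumed to vary like the other groups. When all 3 choroid-rich libraries were left out, 4 were lower (Cacng8, Gria1, Grik4 and Shisa6) and 2 higher (Gria4 and Grm8). The fit without the choroid-rich libraries also held no RUV factors, which model unwanted variation between libraries, and it left a lone WT female. With all 12 libraries and no RUV factors, 2 were lower and 2 higher.

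**Figure D2:**
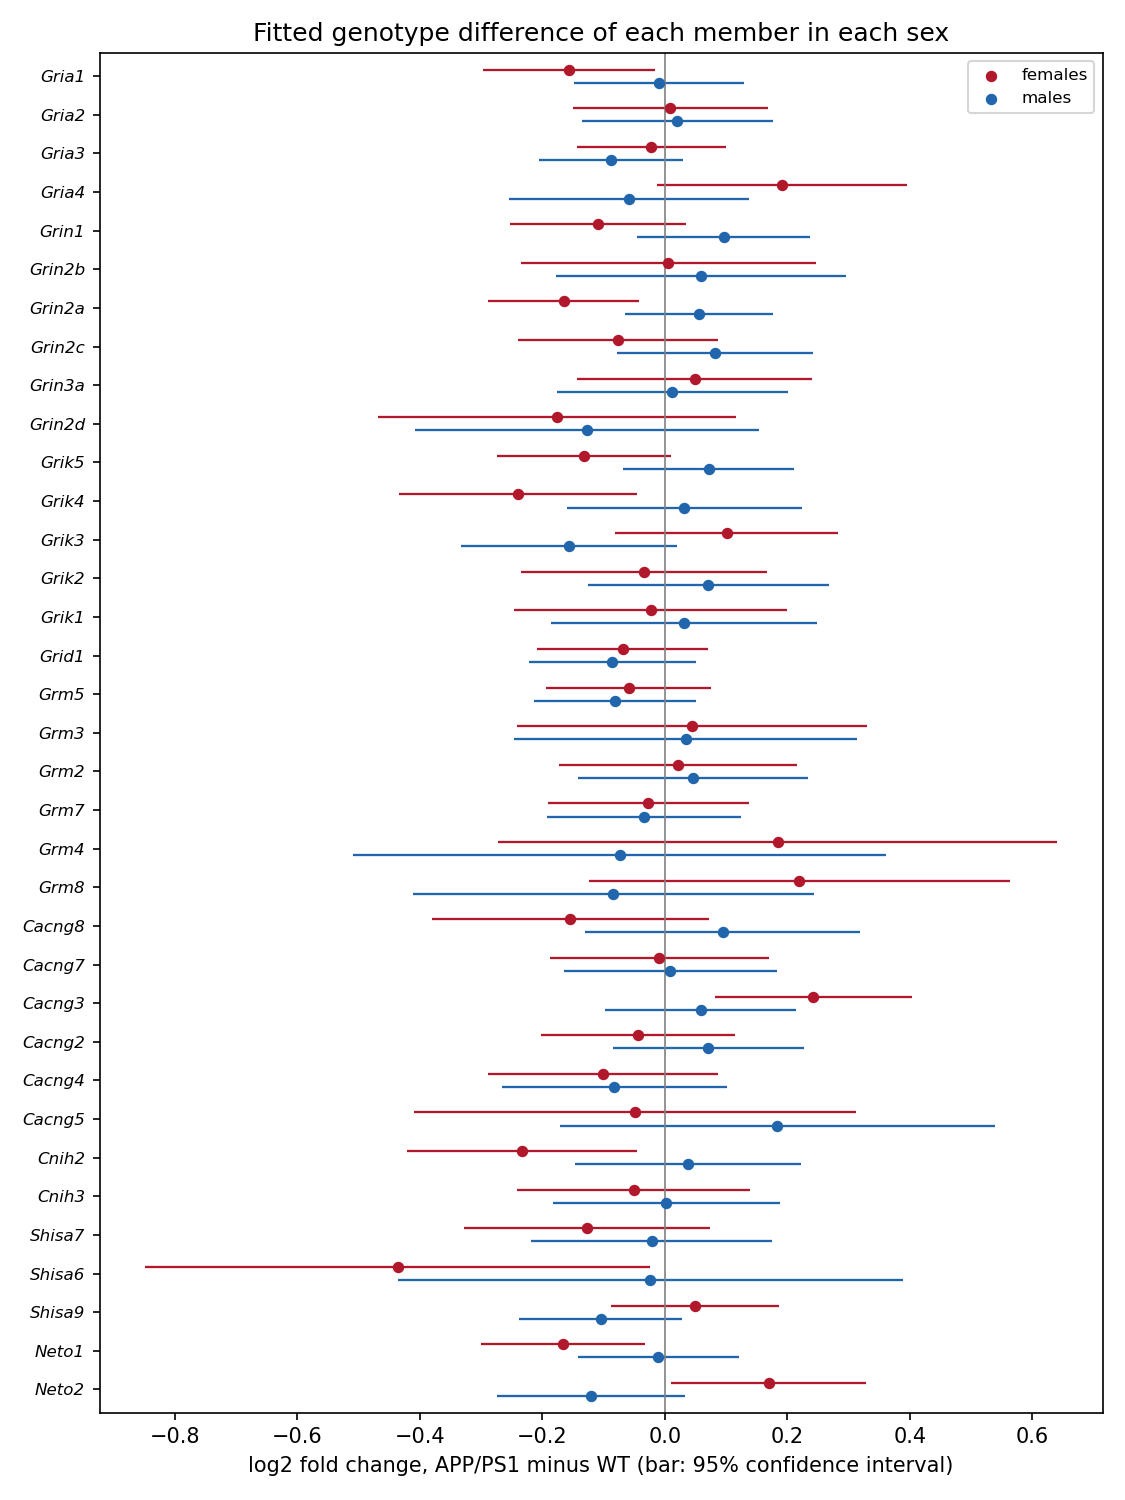
Log2 fold change of APP/PS1 minus WT for tested members, in females (red) and males (blue), with points for the estimates and bars for their 95% confidence intervals from edgeR's quasi-likelihood fit. Estimates lie on both sides of 0 in each sex, and none reached an FDR under 0.1.

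Among AMPA receptor subunits, Gria1, which can form calcium-permeable channels, had 929.8, 962, 1004 and 1073 CPM in APP/PS1 females, 1170.0 and 976 in WT females, 1034, 1077, 1010.0 and 987 in APP/PS1 males and 1036 and 1043 in WT males. WT female 1 was the highest of the 12 libraries and APP/PS1 female 1 the lowest, and the groups overlapped in both sexes. The log2 fold change of Gria1 was -0.083 ± 0.045 (SE) with sexes averaged, -0.16 ± 0.065 in females and -0.0097 ± 0.064 in males, and the quasi-likelihood test of edgeR gave Benjamini-Hochberg adjusted p-values of 0.599, 0.453 and 0.999. Without WT female 1 the estimate of Gria1 was -0.025 in females and -0.020 with sexes averaged, and without WT female 2 it was -0.27 and -0.14. Gria4, a subunit found mostly in interneurons, had 84.2, 87.9, 82.8 and 85.1 CPM in APP/PS1 females, 69.2 and 78.8 in WT females, 88.4, 67.7, 88.0 and 79.4 in APP/PS1 males and 85.5 and 85.1 in WT males. All 4 APP/PS1 females exceeded both WT females, whereas in males APP/PS1 male 2 was the lowest library and the genotypes overlapped. Its estimate was 0.19 ± 0.094 in females and -0.058 ± 0.090 in males, and leaving out WT female 1 or WT female 2 gave 0.063 or 0.33 in females. Gria2, which makes AMPA receptors impermeable to calcium and is added for that role, lay within 879 to 1001 CPM over all libraries, with a log2 fold change of 0.014 ± 0.051 and a 95% confidence interval of -0.097 to 0.13 with sexes averaged.

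Of the NMDA receptor subunits, Grin1 had 415, 486, 469.6 and 434 CPM in APP/PS1 females, 514 and 478 in WT females, 447, 438, 439.6 and 534 in APP/PS1 males and 421 and 466 in WT males. The highest library was APP/PS1 male 4 and the next was WT female 1, so both genotypes reached the top of the range. Its log2 fold change was -0.0066 ± 0.046 with sexes averaged (95% confidence interval -0.11 to 0.093), and its sign changed when single animals were left out, 7 times in 12. Grin2a, singled out after its values were seen, is the subunit that joins or replaces Grin2b as synapses mature, and it had 256, 249, 268 and 315 CPM in APP/PS1 females, 299 and 279 in WT females, 287, 314, 269 and 251 in APP/PS1 males and 281 and 251 in WT males. In females, 3 of the 4 APP/PS1 libraries were below both WT females and APP/PS1 female 4 was above both. The fit, which also holds the RUV factors, gave -0.17 ± 0.057 in females and 0.056 ± 0.056 in males, with an adjusted p by the Benjamini-Hochberg method of 0.342 and 0.999 from edgeR's quasi-likelihood test. Without the RUV factors the female estimate of Grin2a was -0.088, and with a choroid plexus score in their place it was -0.082. Grin2b, Grin2c and Grin3a had estimates between 0.0024 and 0.032 with sexes averaged, and Grin2d, named after its values were seen, had -0.15 ± 0.093.

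For the kainate receptor family, Grik5 had 140.1, 156, 166 and 156 CPM in APP/PS1 females, 175 and 163 in WT females, 147, 147, 155 and 168 in APP/PS1 males and 146 and 153 in WT males. WT female 1 was again the highest library, and APP/PS1 female 1 the lowest. Its log2 fold change was -0.031 ± 0.046 with sexes averaged, or -0.057 to -0.00038 over animals left out. Grik4, which like Grik5 binds kainate with high affinity and is enriched in CA3, had 42.2, 44.6, 38.8 and 43.0 CPM in APP/PS1 females, 52.4 and 48.9 in WT females, 41.7, 46.3, 45.9 and 48.8 in APP/PS1 males and 40.4 and 49.6 in WT males. Every APP/PS1 female was below both WT females, while the WT males lay on either side of all 4 APP/PS1 males. The estimate was -0.24 ± 0.090 in females and 0.032 ± 0.089 in males, with adjusted p-values of 0.388 and 0.999 from edgeR's quasi-likelihood test with Benjamini-Hochberg adjustment. The male estimate of Grik4 ran from -0.10 to 0.18 over animals left out, the values when WT male 1 and when WT male 2 was dropped. Grik3, singled out after its values were seen, had 61.3, 79.8, 65.8 and 55.9 CPM in APP/PS1 females, 63.1 and 62.6 in WT females, 65.8, 54.8, 70.9 and 69.1 in APP/PS1 males and 71.5 and 77.9 in WT males. APP/PS1 female 2 was the highest library and APP/PS1 male 2 the lowest; the female groups overlapped, and both WT males were above all 4 APP/PS1 males. Its log2 fold change of -0.16 ± 0.081 in males had the smallest unadjusted p of the members in that sex, 0.076 in edgeR's quasi-likelihood fit across all genes, with an adjusted p of 0.946.

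The kainate receptor partner Neto1, also an NMDA receptor binding protein, had 162, 161, 165 and 177 CPM in APP/PS1 females, 189 and 179 in WT females, 169, 165, 189 and 179 in APP/PS1 males and 172 and 186 in WT males. All APP/PS1 females lay below both WT females, and the male groups overlapped. It had the smallest unadjusted p of the lower members with sexes averaged, 0.062, with a log2 fold change of -0.089 ± 0.043 and an adjusted p of 0.555 from edgeR's quasi-likelihood test with Benjamini-Hochberg adjustment. Its paralog Neto2, singled out after its values were seen, had 65.7, 63.8, 68.5 and 75.3 CPM in APP/PS1 females, 61.7 and 54.1 in WT females, 76.2, 60.5, 71.7 and 62.3 in APP/PS1 males and 78.8 and 70.7 in WT males. In females it went the other way from Neto1, with all 4 APP/PS1 libraries above both WT libraries, and in males WT male 1 was the highest library. The estimates for Neto2 were 0.17 ± 0.074 in females and -0.12 ± 0.071 in males. Non-overlap in females was not rare in the table, since 6.61% of all genes had every APP/PS1 female below both WT females and 12.5% had every one above; among the members these counts were 4 (Grin2c, Grik4, Shisa7 and Neto1) and 2 (Gria4 and Neto2). In males 4.34% of all genes had every APP/PS1 library below both WT libraries and 6.5% had every one above, and among the members these counts were 3 (Grik3, Grid1 and Shisa9) and 0.

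Grid1, a delta receptor of the forebrain, had 59.9, 71.3, 64.8 and 68.1 CPM in APP/PS1 females, 74.1 and 62.3 in WT females, 71.4, 64.8, 69.9 and 69.4 in APP/PS1 males and 74.0 and 75.5 in WT males. APP/PS1 female 1 was the lowest library and WT male 2 the highest, and all 4 APP/PS1 males were below both WT males. Its log2 fold change was -0.077 ± 0.045 with sexes averaged (-0.12 to -0.024 over animals left out), -0.069 ± 0.065 in females (-0.15 to 0.038 over animals left out) and -0.086 ± 0.063 in males, and the adjusted p with sexes averaged was 0.624 by edgeR's quasi-likelihood test and the Benjamini-Hochberg method.

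Of the metabotropic receptors, Grm5, coupled to phospholipase C, had 319, 332, 319.6 and 339.6 CPM in APP/PS1 females, 361 and 308 in WT females, 332, 328, 361 and 327 in APP/PS1 males and 377 and 345 in WT males. WT male 1 and APP/PS1 male 3 were highest, WT female 2 was lowest, and the genotypes overlapped. Its estimate was -0.070 ± 0.044 with sexes averaged and -0.12 to -0.018 over animals left out. Grm3, a receptor of astrocytes as well as neurons that inhibits adenylyl cyclase, had 48.2, 51.8, 43.2 and 40.2 CPM in APP/PS1 females, 46.4 and 43.5 in WT females, 50.2, 42.2, 47.8 and 47.0 in APP/PS1 males and 53.1 and 39.1 in WT males. The WT males were the highest and the lowest of the 12 libraries, and the estimate of 0.039 ± 0.090 has a 95% confidence interval of -0.16 to 0.24 and ran from -0.060 to 0.18 over animals left out. Grm2, its mainly presynaptic counterpart, had 52.5, 61.8, 67.1 and 67.8 CPM in APP/PS1 females, 56.8 and 61.9 in WT females, 57.5, 49.2, 59.6 and 57.0 in APP/PS1 males and 52.4 and 58.1 in WT males. Its top values were those of APP/PS1 females 3 and 4 and its lowest was APP/PS1 male 2, and the log2 fold change was 0.034 ± 0.062, with -0.014 to 0.12 over animals left out.

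Presynaptic Grm7 had 57.6, 60.0, 61.9 and 62.0 CPM in APP/PS1 females, 58.4 and 65.1 in WT females, 57.3, 53.8, 60.6 and 64.9 in APP/PS1 males and 59.8 and 62.6 in WT males. Both its highest library, WT female 2, and its lowest, APP/PS1 male 2, were choroid-rich, and the genotypes overlapped at an estimate of -0.031 ± 0.052 (-0.075 to 0.033 over animals left out). Grm8 was near the low end of the tested members, with 10.03, 11.8, 9.19 and 9.81 CPM in APP/PS1 females, 7.49 and 10.3 in WT females, 10.8, 8.10, 10.1 and 10.2 in APP/PS1 males and 10.9 and 10.03 in WT males. WT female 1 was the lowest library and APP/PS1 female 2 the highest, and the estimate was 0.068 ± 0.11 with sexes averaged and 0.22 ± 0.16 in females, where the interval ran from -0.12 to 0.56. Leaving out WT female 1 turned the female estimate of Grm8 to -0.032, and leaving out WT female 2 gave 0.50.

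Cacng3 was the one member with an unadjusted p under 0.05 when sexes were averaged, and without the RUV factors there was none. This AMPA receptor regulatory protein had 41.6, 51.6, 50.59 and 43.6 CPM in APP/PS1 females, 42.2 and 36.8 in WT females, 47.3, 40.2, 48.8 and 46.2 in APP/PS1 males and 43.6 and 46.8 in WT males. Of the APP/PS1 females, 3 exceeded both WT females and APP/PS1 female 1 lay between them, and the male groups overlapped. The log2 fold change was 0.15 ± 0.052 with sexes averaged (95% confidence interval 0.039 to 0.26), 0.24 ± 0.074 in females and 0.058 ± 0.072 in males, with an unadjusted p of 0.0122 and a Benjamini-Hochberg adjusted p of 0.309 from edgeR's quasi-likelihood test for the first. The estimate stayed above 0 in all 12 fits that left out 1 animal, at 0.12 to 0.19, and its lowest adjusted p in these fits was 0.120 by the Benjamini-Hochberg method. Its unadjusted p went above 0.05 when WT female 2, WT male 1 or the 3 choroid-rich libraries were left out. The annotation places another gene on the opposite strand of Cacng3.

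Cacng8, the regulatory protein most associated with the hippocampus, had 55.6, 61.2, 65.9 and 54.0 CPM in APP/PS1 females, 73.7 and 59.5 in WT females, 61.2, 66.6, 56.1 and 64.7 in APP/PS1 males and 57.5 and 59.9 in WT males. WT female 1 was the highest library and APP/PS1 female 4 the lowest, with an estimate of -0.030 ± 0.073 with sexes averaged. Cacng5, at 8.49, 9.11, 6.33 and 10.1 CPM in APP/PS1 females, 8.41 and 8.75 in WT females, 9.18, 11.5, 7.60 and 8.12 in APP/PS1 males and 8.11 and 7.21 in WT males, varied most in relation to its level among the regulatory proteins. Its highest library was APP/PS1 male 2 and its lowest APP/PS1 female 3, both APP/PS1, and the estimate was 0.067 ± 0.12, or 0.0070 to 0.13 over animals left out.

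Cnih2 had 281, 311, 355 and 346 CPM in APP/PS1 females, 386 and 354 in WT females, 337, 373, 326 and 342 in APP/PS1 males and 325 and 349 in WT males. WT female 1 was the highest and APP/PS1 female 1 the lowest library; 3 of 4 APP/PS1 females were below both WT females. Its log2 fold change was -0.23 ± 0.086 in females and 0.038 ± 0.085 in males, with a female range of -0.28 to -0.15 over animals left out (the ends being without WT female 2 and without APP/PS1 female 1), and the adjusted p in females was 0.378 by edgeR's quasi-likelihood test with Benjamini-Hochberg adjustment. Shisa6, which holds AMPA receptors at the synapse and keeps them from desensitizing, had 143, 123, 107 and 161 CPM in APP/PS1 females, 194 and 156 in WT females, 133, 155, 133 and 122 in APP/PS1 males and 115 and 155 in WT males. Its coefficient of variation was 17.1%, and WT female 1 stood above the other 11 libraries while WT male 1 was among the lowest. Its estimate was the largest of all members in size, -0.44 ± 0.18 in females (95% confidence interval -0.85 to -0.024) against -0.024 ± 0.18 in males. Leaving out single animals moved the female estimate of Shisa6 to between -0.61 and -0.25, the values without WT female 2 and WT female 1. With an adjusted p of 0.483 in females and 0.624 with sexes averaged from edgeR's quasi-likelihood test (Benjamini-Hochberg), neither passed. Shisa7 had 152, 169.7, 156 and 160.0 CPM in APP/PS1 females, 186 and 171 in WT females, 158, 146, 131 and 179.6 in APP/PS1 males and 145 and 172 in WT males. All APP/PS1 females were below both WT females, and the estimate with sexes averaged was -0.075 ± 0.064, or -0.13 to -0.026 over animals left out.

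**Figure D3:**
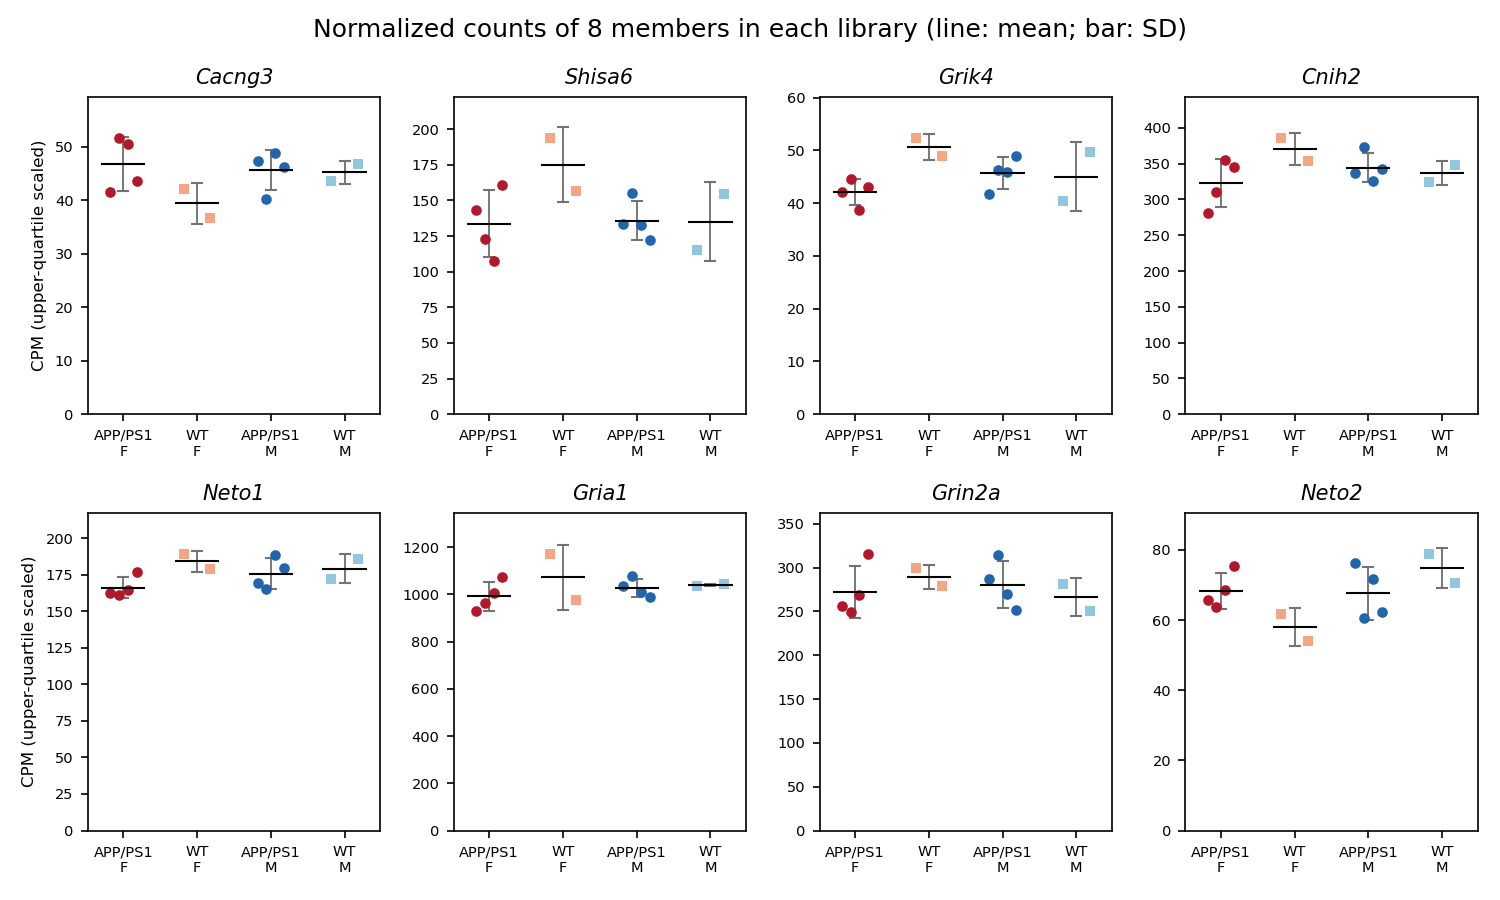
CPM of the 8 members with an unadjusted p under 0.05 in females, with 1 point per library, lines for group means and bars for SD (n = 4 APP/PS1 and 2 WT per sex), on axes from 0. The mean of the WT females lies above that of the APP/PS1 females for Shisa6, Grik4, Cnih2, Neto1, Gria1 and Grin2a and below it for Cacng3 and Neto2, while the male groups overlap.

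The difference between the sexes in these estimates was tested directly as the interaction of genotype and sex. With edgeR's quasi-likelihood test, 0 members and 0 of 14008 genes (0%) passed an FDR under 0.1, and 0 members passed with the likelihood ratio test or DESeq2. At an unadjusted p under 0.05, 6 of 37 members (16.2%) were found where 4.03% of all genes were: Neto2 (0.29 ± 0.10) and Grik3 (0.26 ± 0.12) with the higher difference in females, and Cnih2 (-0.27 ± 0.12), Grin2a (-0.22 ± 0.080), Grin1 (-0.20 ± 0.094) and Grik5 (-0.20 ± 0.093) with the lower one. These names were taken after their values were seen. The count was 3 with the likelihood ratio test and 5 with DESeq2, and without the 3 choroid-rich libraries it was 2. It was also 2 without RUV factors or with a choroid plexus score in their place, 1 with 1 RUV factor and 3 with the other RUV first pass. Leaving out single animals gave 1 without WT female 1 or WT male 1, 2 when APP/PS1 female 2 or APP/PS1 male 4 was dropped, 3 when APP/PS1 male 2 was and 9 when WT female 2 was.

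Females against males, with genotypes averaged, gave 0 called members and 14 called genes (0.0999%) by edgeR's quasi-likelihood test at an FDR under 0.1. Without APP/PS1 male 4 there were 47 genes, and without any other APP/PS1 animal 10 to 15. The likelihood ratio test and DESeq2 called 0 members, with 59 and 58 genes in the table. At an unadjusted p under 0.05 the quasi-likelihood test had 4 members, where 6.36% of all genes were found. There were 3 and 5 members with the other tools, 1 without RUV factors and 2 with the choroid plexus score. Leaving out single animals gave 1 without APP/PS1 female 4, 2 without APP/PS1 female 3, 7 without APP/PS1 female 1 and 8 without WT male 2. The 4 were Cnih3 (0.21 ± 0.062) and Grm2 (0.17 ± 0.063), higher in females, and Grik3 (-0.14 ± 0.060) and Neto2 (-0.12 ± 0.052), lower in females, all named after their values were seen. Cnih3, the less abundant cornichon, had 54.4, 67.9, 79.3 and 84.4 CPM in APP/PS1 females, 68.0 and 68.2 in WT females, 63.8, 60.7, 68.9 and 58.3 in APP/PS1 males and 65.5 and 62.5 in WT males. Its highest library was APP/PS1 female 4 and its lowest APP/PS1 female 1. The smallest adjusted p among members was that of Cnih3, 0.537 by the Benjamini-Hochberg method, and the sexes overlapped for every member. Gria3, the only member on chromosome X, had 0.085 ± 0.040.

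Ratios between paired members were taken within each library, where they need no scaling between libraries. A two-sided exact permutation test compared the genotypes over all splits of the 12 animals into 8 and 4. It can give a p no smaller than 0.00202. Sex was not held fixed in the splits, so differences between the sexes count as spread. Of the 8 ratios given here, 0 passed an FDR under 0.1 and 0 had an unadjusted p under 0.05. The log2 ratio of Gria1 to Gria2 counts was -0.10, 0.056, 0.17 and 0.15 in APP/PS1 females, 0.26 and 0.14 in WT females, 0.20, 0.17, 0.012 and 0.050 in APP/PS1 males and 0.051 and 0.25 in WT males. APP/PS1 libraries averaged 0.088 ± 0.10 (SD, n = 8) and WT libraries 0.17 ± 0.098 (SD, n = 4; exact permutation p = 0.188), with the genotypes overlapping. Grin2b to Grin2a, whose balance shifts during development, differed by 0.057, or 0.010 to 0.10 over animals left out (exact permutation p = 0.578).

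The ratio of Neto2 to Neto1 was -1.30, -1.34, -1.27 and -1.23 in APP/PS1 females, -1.62 and -1.73 in WT females, -1.15, -1.45, -1.40 and -1.52 in APP/PS1 males and -1.13 and -1.40 in WT males. In females the 4 APP/PS1 libraries were above both WT libraries and their mean was higher by 0.39, whereas in males the mean difference was -0.12 and the genotypes overlapped. Over both sexes the difference was 0.13 (exact permutation p = 0.255, adjusted p = 0.65), with 0.047 when WT female 2 was left out and 0.25 when WT male 1 was. The contrast between the sexes in this ratio was not tested. For single genes, every APP/PS1 female lay below both WT females in 6.61% and above both in 12.5%. Such a share was not computed for ratios. The other ratios, Gria3 to Gria2, Grik2 to Grik5, Grm2 to Grm3, Cacng8 to Cacng2 and Cnih3 to Cnih2, differed by -0.058 to 0.096 between genotypes, with exact permutation p-values of 0.396 to 0.947.

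**Figure D4:**
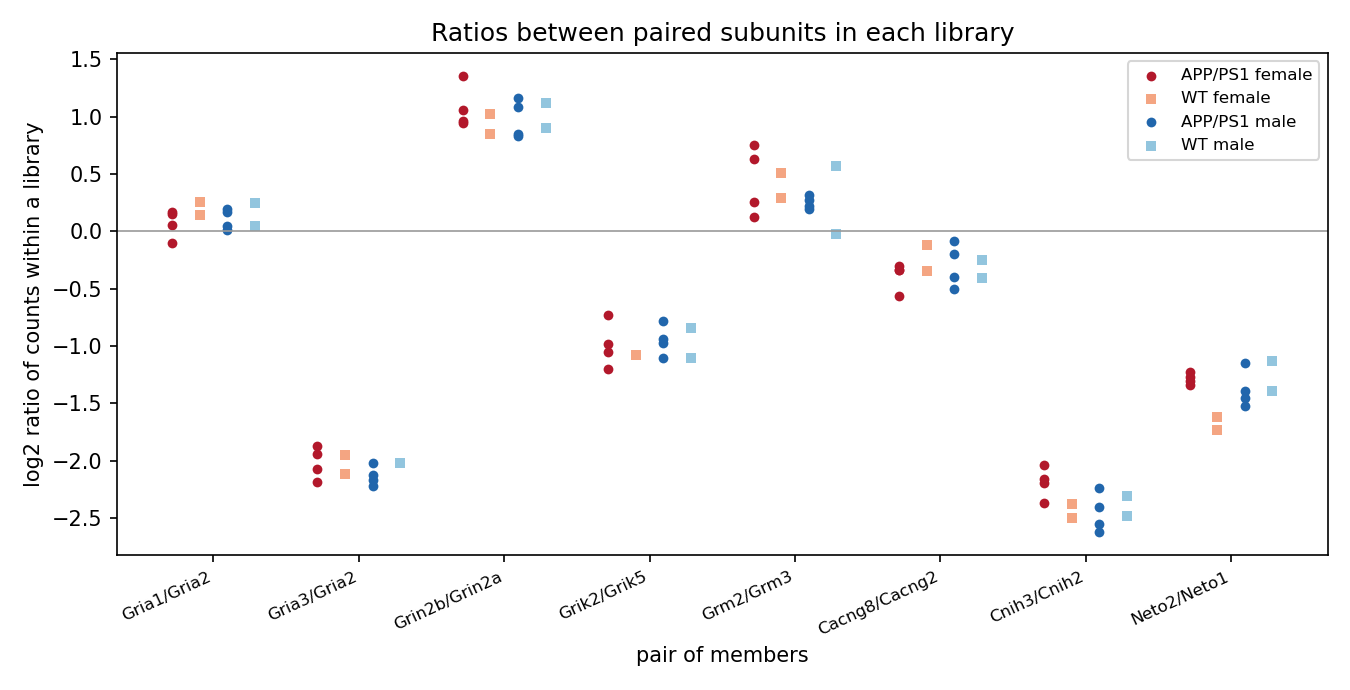
Log2 ratio of the counts of 8 pairs of members in each of the 12 libraries, with colours and symbols for the 4 groups. APP/PS1 and WT libraries overlap in every ratio. Within a sex, the female groups do not overlap for Neto2/Neto1 and Cnih3/Cnih2, nor the male groups for Gria3/Gria2. The nearest libraries are close for Cnih3/Cnih2 (-2.367 in APP/PS1, -2.376 in WT) and for Gria3/Gria2 (-2.020 in APP/PS1, -2.017 in WT). With 4 against 2 animals such non-overlap is not rare, and its share was not computed for ratios.

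Genes that work with these receptors were counted in 5 lists. With edgeR's quasi-likelihood test at an FDR under 0.1 and sexes averaged, 0 of 17 genes of postsynaptic scaffolds and signalling, 0 of 16 of AMPA receptor assembly and trafficking (19 on the list), 0 of 14 extracellular organizers (15 on the list), 0 of 8 of glutamate transport and turnover and 0 of 8 of metabotropic receptor signalling were called. In the same order there were 1, 0, 3, 1 and 1 lower and 0 higher genes at an unadjusted p under 0.05 with sexes averaged, where 3.33% of all genes were lower and 6.26% higher. At that p in females 2, 3, 4, 0 and 1 were lower and 1, 1, 3, 0 and 0 higher (all genes 3.64% and 6.15%), and in males 1, 0, 2, 1 and 0 were lower and 0 higher (all genes 1.93% and 3.78%). The median log2 fold changes were -0.047, -0.016, -0.059, -0.022 and -0.068, against 0.0095 for all genes. In females 13 of 17, 8 of 16, 8 of 14, 7 of 8 and 7 of 8 genes of the lists were below 0, where 45.9% of all genes were, with medians of -0.089, 0.0023, -0.075, -0.047 and -0.11. In males 8 of 17, 8 of 16, 10 of 14, 6 of 8 and 4 of 8 were, where 47.7% of all genes were, with medians of 0.026, -0.0039, -0.030, -0.021 and -0.0027. The most abundant genes per length were Camk2a, the synaptic kinase, at 1576 TPM, Nsf, a membrane fusion ATPase that binds Gria2, at 481, the pentraxin receptor Nptxr at 533, glutamine synthetase Glul at 1288 and Ncdn at 2344 TPM. Camk2a differed by a log2 value of -0.19 ± 0.070 in females and 0.046 ± 0.069 in males. Nsf had -0.14 ± 0.054 in females and -0.013 ± 0.053 in males, Nptxr -0.28 ± 0.090 and -0.047 ± 0.088, and Ncdn -0.19 ± 0.086 and 0.046 ± 0.085. Glul had the larger difference in males, with -0.058 ± 0.13 in females and -0.48 ± 0.13 in males. The summed level of the scaffold list was 3389, 3575, 3547 and 3554 TPM in APP/PS1 females, 4221 and 3706 in WT females, 3412, 3451, 3375 and 4064 in APP/PS1 males and 3428 and 3745 in WT males, so WT female 1 was the highest library here too.

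Cell type markers were read from the same fit, and in whole tissue fewer cells of a type and less RNA per cell cannot be told apart. With sexes averaged and edgeR's quasi-likelihood test at an FDR under 0.1, 4 of 7 microglial markers were called higher, among them Csf1r (0.59 ± 0.12), P2ry12 (0.59 ± 0.13) and Aif1 (0.77 ± 0.18), and all 7 were above 0. Csf1r, the receptor of a growth factor that microglia need, had 139.7, 113, 146 and 99.6 CPM in APP/PS1 females, 92.6 and 76.6 in WT females, 125, 132, 100.1 and 136 in APP/PS1 males and 73.9 and 94.5 in WT males, with every APP/PS1 library above every WT library. Of the astrocyte markers, 1 of 7 was called, Gfap (1.06 ± 0.14). None of 6 excitatory neuron, 7 interneuron, 6 pan-neuronal, 6 oligodendrocyte, 4 oligodendrocyte precursor, 4 endothelial, 12 choroid plexus, 4 thalamic or 4 striatal markers was called, nor any of the hippocampal subfield markers; at an unadjusted p under 0.05 these lists had 1 excitatory and 1 pan-neuronal gene higher and 1 interneuron, 1 precursor, 1 dentate and 1 CA1 gene lower. No marker in any list was at 0 in all libraries. The most abundant marker was Nrgn at 2979 TPM for excitatory neurons, Sst at 932.6 TPM for interneurons, Snap25 at 1188 TPM for neurons in general and Aldoc at 809 TPM for astrocytes. Olig1 led the precursor list at 174 TPM, Cldn5 the endothelial list at 68.6, Mpped1 the CA1 list at 183, Dkk3 the CA3 list at 527 and Rgs16 the thalamic list at 13.9 TPM. All 12 choroid plexus markers were below 0 in females, 4 of them at an unadjusted p under 0.05. Of the females, 1 of 4 APP/PS1 and 1 of 2 WT libraries were rich in them. In males 9 were above 0, 1 of them at that p. The summed level of these markers was 11586, 39.5, 27.6 and 47.0 TPM in APP/PS1 females, 25.7 and 12025 in WT females, 58.8, 19439, 23.2 and 77.4 in APP/PS1 males and 23.8 and 34.7 in WT males.

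All 5 dentate granule cell markers were below 0 in females, with 0 called and 2 at an unadjusted p under 0.05, Prox1 (-0.28 ± 0.069) and Dsp (-0.42 ± 0.17), named after their values were seen. In males 4 of 5 were above 0, 0 of them at that p, and 1 was lower at that p. The summed level of that list was 279, 263, 269.9 and 315 TPM in APP/PS1 females, 342 and 262 in WT females, 305, 301, 285 and 266 in APP/PS1 males and 314 and 259 in WT males, and its most abundant gene was Calb1 at 114 TPM. WT female 1 was the highest library in the dentate sum and in the sum of the 4 CA3 markers, 689.8, 727, 698 and 709.7 TPM in APP/PS1 females, 794 and 692 in WT females, 719, 681, 677 and 792 in APP/PS1 males and 705 and 739 in WT males. The sum of the 4 CA1 markers was highest in WT male 2, with 443, 518, 522 and 484 TPM in APP/PS1 females, 526 and 470.4 in WT females, 484, 429, 457 and 539 in APP/PS1 males and 508 and 567 in WT males. Of these markers 3 were above 0 in females and 3 below 0 in males. The part of the subfield markers in the female estimates for the receptors was not tested. That of WT female 1 was examined only through the fits without this animal, given above.

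Of the 37 members, 30 have another annotated gene over their locus, 18 on the same strand and 21 on the opposite strand, and the strand option of the counting is not stated, so reads of these neighbours may be included; the 7 without one were Gria1, Grin2a, Grik1, Grik5, Cacng5, Shisa7 and Shisa9.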

How the data were processed

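Counts of reads per Ensembl gene were deposited by the authors, who used Trimmomatic for trimming, STAR for alignment (GRCm38) and HTSeq for counting; versions, annotation release and the options for strand and multiple alignments are not stated. They came from poly-A directional libraries of 12 animals, in 4 groups of genotype and sex. The members, roles and lists were chosen with earlier results of these data known.

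The 14008 genes at or above a log2 CPM of 1 in 3 or more libraries were fitted in R 4.3.3 with edgeR 4.0.16 (quasi-likelihood, robust, two-sided), with upper-quartile scaling and 2 RUVg factors written out anew; control genes were all but the 5000 with the smallest p in a first pass across the groups. APP/PS1 was compared with WT with sexes averaged, in females and in males, together with the interaction and females against males, each at a Benjamini-Hochberg FDR under 0.1. The procedure was run on simulated counts, for the comparison with sexes averaged only. Those counts held no sex difference and no added unwanted variation between libraries. How often it found small changes is not given, so the run does not bear on the members that were not called. TPM used the union of exons in GENCODE M21. Log2 ratios of counts were tested with an exact permutation test in Python 3.11.15 (numpy 2.4.6, pandas 2.3.3; plots with matplotlib 3.10.9), with Benjamini-Hochberg adjustment over 9 ratios, of which 8 are given.

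Values per library are given for members called in any contrast, the most abundant member of each role, and the 5 with the smallest unadjusted p in each direction with sexes averaged. Of the lists, called genes (at most 5) are given with an estimate and the most abundant gene with its median level, except for a few genes that are not named. Among the list genes, only Csf1r has its value printed for every library. The 5 pathway lists and 14 marker lists are counted without a test of the list. Alternatives were the likelihood ratio test, DESeq2 1.42.0, TMM scaling, other filters, 0 or 1 RUV factor, another first pass, the replicate number as a block, an FDR under 0.05, each sex alone, each animal left out, a choroid plexus score and the fit without the 3 choroid-rich libraries. Their use on unadjusted counts and on single-sex estimates, and the longest transcript as gene length, were chosen after seeing the data. The fits with a choroid plexus score, without the choroid-rich libraries and of each sex alone held no RUV factors. Grin3b, Grid2ip and Grm6 were left out of the tests as below the filter, and results on a few genes, 1 ratio among them, are not given.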

Additional observations from a re-analysis of the deposited data

Results flagged for a closer look

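In each group of 4 APP/PS1 animals, the highest or lowest library was compared with the other 3 by the share of the group's range that its gap takes (Dixon's test at 95%), and 6 of 86 groups had a library past the critical value, where chance gives about 1 in 20. APP/PS1 male 2, one of the choroid-rich libraries, was low in 3 of them. Its Grin3a value was 45.0 CPM against 54.5 to 56.0 CPM in the other APP/PS1 males. For Grik1 it had 12.5 CPM against 14.5 to 14.6 CPM. Shisa9 had 50.007 CPM there against 59.3 to 60.1 CPM. The other 3 were in 3 animals. APP/PS1 male 4 had 534 CPM of Grin1, where the other APP/PS1 males had 438 to 447 CPM. APP/PS1 male 3 had 361 CPM of Grm5 against 327 to 332 CPM. APP/PS1 female 4 had a log2 ratio of Cacng8 to Cacng2 of -0.56 against -0.33 to -0.30 in the other APP/PS1 females. The WT groups, with 2 animals each, are too small for this comparison.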

How the results depend on the processing

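Under every alternative and with each animal left out, 0 members were called in the averaged, female, male and interaction comparisons. Females against males gave 0 except with the RUV first pass on the combined genotype effect, where 1 member was called, Grin2a (adjusted p 0.0672 with edgeR and Benjamini-Hochberg), beside 381 genes in the table; the cause was not tested. The replicate number as a block, from a label that the libraries share as a number (within same-number pairs r ran from -0.673 to 0.732), called 0 members and 196 genes with sexes averaged, and had 3 members at an unadjusted p under 0.05 in the interaction. The likelihood ratio test called 396 genes there, DESeq2 399, no RUV factors 173 and the fit without the choroid-rich libraries 66. The averaged estimate of Cacng3 kept its sign, at 0.13 to 0.18 over alternatives and 0.12 to 0.19 over animals left out. Among the averaged member estimates followed through these fits, signs changed without a call for Grin1 in 7 fits without 1 animal, for Grm2 in 2 and 1 alternative, for Grm7 in 1 of each and for Grm3, Cacng8 and Grm8 in 1 fit each. Estimates within a sex changed sign more often, such as those of Gria2 in females (4 alternatives and 5 fits without 1 animal) and of Shisa6 (4 and 3), Gria1 (3 and 3) and Neto1 (1 and 4) in males. Of the 8 ratios given, 0 passed under any alternative; Grm2 to Grm3 changed sign in 4 such fits and with medians, and Gria3 to Gria2 and Grik2 to Grik5 changed sign without the choroid-rich libraries. With 2 WT animals per sex, leaving out 1 leaves a lone library that is assumed to vary like the other groups. Libraries held at least 36714316 counts, and the 95% confidence intervals of the members in females, with 2 WT animals, extended a median of 0.19 on the log2 scale to either side.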
